A study of Mus musculus with 1753 samples.

Results

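Elastic fibre genes and genes of the fibulin family, 10 in all, were followed across single cells of mouse skeletal muscle. They were Eln, Fbn1, Mfap2, Mfap4, Mfap5, Fbln1, Fbln2, Fbln5, Efemp1 and Efemp2, chosen by symbol, and each matched 1 row by its Ensembl mouse gene identifier among the 46517 genes of the table, of which 30309 had a count in any cell. All 10 had counts, and all 10 passed the filter on low counts in every comparison below. The samples were 1566 fibroblasts and 187 mural cells, 1 GEO sample per cell, sorted from hindlimb muscle of adult male mice of 10 to 20 weeks and sequenced by Smart-seq2, a full-length protocol primed on the poly(A) tail, with PCR but no molecular identifiers. The sort took CD31-negative cells that were positive for a PDGFRα or PDGFRβ antibody or for a fluorescent reporter.

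The labels gave each cell 1 of 10 clusters and 1 of 5 strain labels. C57BL6 mice (373 cells) carried no reporter, Cspg4dsRED mice (181 cells) carried DsRed driven from Cspg4, PdgfrbGFP mice (630 cells) GFP driven from Pdgfrb, and Acta2GFP mice (157 cells) GFP driven from Acta2, while the label PdgfraGFP - PdgfrbGFP pool (412 cells) named a pool of both reporters. No animal was named in the labels, so the strain label served as the replicate. With the strain as a block, p-values measured how far a difference between classes varied from one strain label to another. The study's methods describe a pool of soleus from a PdgfraGFP and a PdgfrbGFP mouse, and whether the pool and the PdgfrbGFP label come from different mice is not known, so they may not be independent replicates. Acta2GFP tissue was dissociated with elastase, an enzyme that digests elastic fibres, and the other strains without it. The fibroblast classes were those of the study: endomysial (clusters 1, 3, 5, 6 and 8, 1116 cells, from around single muscle fibres), perimysial (clusters 2 and 9, 328 cells, from around fibre bundles), paramysial (cluster 4, 60 cells) and cluster 10 (62 cells), which had no tissue-layer name. Cluster 7 held the mural cells, which are the pericytes and smooth muscle cells that surround blood vessels. Cells were spread unevenly: the pool held 46 of the 60 paramysial cells, Cspg4dsRED held 37 of the 62 cells of cluster 10, and 46 of the 51 Cspg4dsRED endomysial cells were of cluster 6.

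Total counts per cell ranged from 46097 to 1055869 (median 258251), and a median of 4461 genes was detected. Cspg4dsRED cells were shallowest, with medians of 121646 counts and 2283 genes. Defining markers were present in each class as labelled. Myh11, a smooth muscle myosin, was at 2234 ± 474 counts per 500000 in mural cells (SD, n = 5 strains) and at 8.08 or less in each fibroblast class, Tnmd, a tendon marker, was at 1261 ± 165 in perimysial cells (SD, n = 5) and at 109.8 or less elsewhere, Postn, a matrix protein, was highest in paramysial cells (1970 ± 299, SD, n = 4), and Ngfr, a neurotrophin receptor, was highest in cluster 10 (318 ± 203, SD, n = 3). Pdgfra, the receptor used in the sort, was at 13.8 ± 9.06 in perimysial cells and 352 ± 126 in endomysial cells (SD, n = 5). Endothelial Pecam1 was at 29.4 or less and the immune marker Ptprc at 1.93 or less (with the myeloid gene Lyz2 at 58.9 in mural cells and 6.84 or less elsewhere) in each class, while Acta1, an abundant muscle fibre transcript, reached 71.7 in the paramysial class.

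Elastic fibres give skin, lung, arteries and muscle connective tissue their recoil. Each has a core of cross-linked elastin, the product of Eln, deposited on a scaffold of microfibrils that are built mainly from fibrillin-1, the product of Fbn1. Mfap2 and Mfap5 encode MAGP-1 and MAGP-2, small glycoproteins bound to microfibrils, and Mfap4 encodes a fibrinogen-like protein found on the same fibres. Fibulins are extracellular proteins with repeated EGF-like modules: fibulin-5 (Fbln5) and fibulin-4 (Efemp2) are needed to assemble elastic fibres, fibulin-1 (Fbln1) and fibulin-2 (Fbln2) lie in fibres and basement membranes, and fibulin-3 (Efemp1) is known from fascia and from the retina.

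On the mouse assembly GRCm38, Eln lies on chromosome 5 (134702593 to 134747323, minus strand), Fbn1 on chromosome 2 (125300594 to 125507993, minus), Mfap2 on chromosome 4 (141010418 to 141015984, plus), Mfap4 on chromosome 11 (61485431 to 61488900, plus), Mfap5 on chromosome 6 (122505845 to 122529290, plus), Fbln1 on chromosome 15 (85205949 to 85286535, plus), Fbln2 on chromosome 6 (91212455 to 91272540, plus), Fbln5 on chromosome 12 (101746565 to 101819055, minus), Efemp1 on chromosome 11 (28853204 to 28926743, plus) and Efemp2 on chromosome 19 (5473954 to 5482517, plus). Of the exonic bases of Fbn1, 20.1% overlapped the antisense gene Gm9913, of Mfap4 4.63% overlapped Mapk7, of Efemp2 4.57% overlapped Mus81 and of Eln 3.3% overlapped Gm30003. Whether counting used strand was not stated, so reads in those stretches are uncertain.

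Promoter windows from RefSeq (GRCm38.p6, 250 bases before to 50 after each start site) were found for 7 of the 10 genes. The windows of Fbn1 and Fbln2 are shown because their levels ran together across libraries, mural ones included (below). That of Efemp1 is shown because this gene was concentrated in clusters 1 and 10. Capitals mark matches to the GC box (GGGCGG) and to the AP-1 motif (TGANTCA), searched on both strands, and positions count from the start site.
Fbn1, chr2:125506389-125506688, minus strand: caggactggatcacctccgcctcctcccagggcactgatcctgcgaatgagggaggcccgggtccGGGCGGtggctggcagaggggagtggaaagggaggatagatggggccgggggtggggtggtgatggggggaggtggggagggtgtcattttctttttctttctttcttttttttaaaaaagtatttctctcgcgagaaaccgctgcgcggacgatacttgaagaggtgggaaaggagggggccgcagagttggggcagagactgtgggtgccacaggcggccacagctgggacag
Fbln2, chr6:91212514-91212813, plus strand: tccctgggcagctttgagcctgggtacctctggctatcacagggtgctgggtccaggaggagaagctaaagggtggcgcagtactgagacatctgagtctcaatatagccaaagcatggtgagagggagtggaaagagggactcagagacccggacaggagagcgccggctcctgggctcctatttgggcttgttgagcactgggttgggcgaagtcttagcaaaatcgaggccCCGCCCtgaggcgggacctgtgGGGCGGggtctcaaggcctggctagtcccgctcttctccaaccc
Efemp1, chr11:28852955-28853254, plus strand: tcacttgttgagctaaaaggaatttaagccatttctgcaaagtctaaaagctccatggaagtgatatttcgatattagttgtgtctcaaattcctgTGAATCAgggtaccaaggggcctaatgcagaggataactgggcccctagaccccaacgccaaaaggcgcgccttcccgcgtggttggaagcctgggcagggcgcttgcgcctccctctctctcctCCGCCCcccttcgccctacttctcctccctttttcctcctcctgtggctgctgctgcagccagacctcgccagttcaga
The Fbn1 window held 1 GC box at position -185, that of Fbln2 had 2 at -16 and 7, and that of Efemp1 had 1 at -29. Among 32851 windows of the same length, 35.7% held a GC box. An AP-1 match was present in the Efemp1 window at -154 and in 7.81% of all windows. The TATA box (TATAAA, in 13.6% of all windows), the CCAAT box (CCAAT, in 37.4%), the TEAD motif (GGAATG, in 14.7%) and the E-box (CACGTG, in 7.15%) had no match in these 3 windows. GC content was 60.3% for Fbn1 and for Fbln2 and 54.3% for Efemp1, against a median of 52.7% over all windows.

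Levels below are mean counts per cell after scaling each cell to 500000 counts, averaged within a strain and then over strains with 3 or more cells of the cluster. Clusters had been made by the authors from these same counts, so a difference between clusters restates the clustering and adds no separate evidence. Neighbours in an order of clusters are called apart where the gap between their means exceeded the SD over strains of each. Where values of groups are said below not to overlap, the share of all genes that separated likewise was not counted. The heat map of all 10 genes over 10 clusters shows that no single cluster was highest for all of them: cluster 4 was highest for Eln, Mfap2, Mfap4 and Mfap5, cluster 1 for Fbn1 and Efemp1, cluster 2 for Fbln1, cluster 3 for Fbln2, cluster 9 for Fbln5 and cluster 5 for Efemp2.

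**Figure D1:**
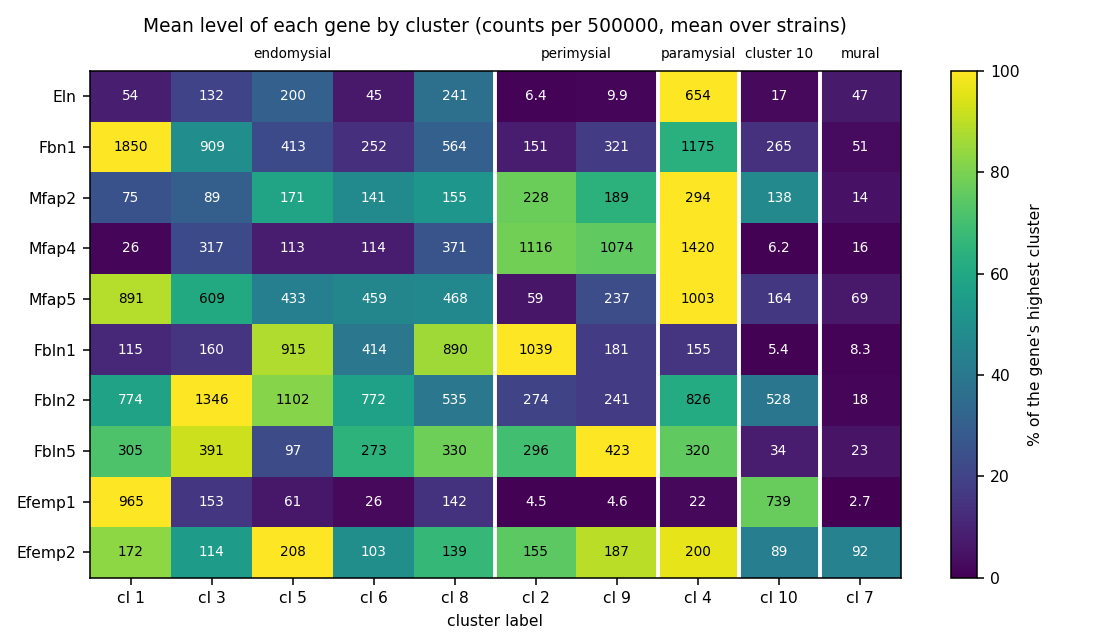
Mean level of each gene (rows) in each cluster (columns, grouped by class), printed in counts per 500000 as the mean over strains, with colour as a percentage of the gene's highest cluster. Eln is brightest in cluster 4 at 654, and Efemp1 stands out in clusters 1 and 10 at 965 and 739.

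Elastin itself was highest in the paramysial cluster 4, where Eln was at 228 in Acta2GFP (6 cells), 1203 in C57BL6 (3 cells), 640 in the pool (46 cells) and 547 in PdgfrbGFP (4 cells). The mean of 654 ± 406 (SD, n = 4 strains) was apart from that of cluster 8, the next in order (241 ± 91.6, SD, n = 4), by a gap of 413.5. Strain values of the 2 clusters overlapped, since those of cluster 8 ran from 130 to 354. The median cell was at 147 in cluster 4 and 93.8 in cluster 8. Cluster 8 was also apart from cluster 3 (132.0 ± 33.0, SD, n = 4), and cluster 5 lay between them with a wide spread (200.4 ± 252, SD, n = 3). Clusters 1, 7, 6, 10, 9 and 2 followed, with means from 54.2 to 6.43 and no gap between neighbours beyond the spread. In cluster 4, 60.1% of cells reached 100 counts per 500000, against 52.1% in cluster 8, 11.9% in mural cluster 7 and 0.97% in cluster 2. In cluster 3 the median cell was at 5.71 and the 90th percentile at 378.

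Microfibril genes differed in their order of clusters. Fbn1 was highest in endomysial cluster 1, with 2457 in Acta2GFP, 1362 in C57BL6, 1903 in the pool and 1679 in PdgfrbGFP, and 99.6% of cluster 1 cells reached 100. Its mean there (1850 ± 461, SD, n = 4) was not apart from that of cluster 4 (1175 ± 815, SD, n = 4), and clusters 3, 8, 5, 9, 10, 6, 2 and 7 followed, from 909 down to 51.1. Mfap5 shared the top of that order, with 1003 ± 212 in cluster 4 and 891 ± 140 in cluster 1 (SD, n = 4 each), and it fell to 59.4 ± 10.7 in perimysial cluster 2 (SD, n = 5).

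Mfap4 followed another order. Its levels were 1420 ± 543 in cluster 4 (SD, n = 4), 1116 ± 274 in cluster 2 (SD, n = 5) and 1074 ± 356 in cluster 9 (SD, n = 4), which could not be told from each other, and then came a gap to cluster 8 at 371. In cluster 1, where Fbn1 and Efemp1 were highest, Mfap4 was at 29.9, 15.6, 33.2 and 24.4 in Acta2GFP, C57BL6, the pool and PdgfrbGFP, and 3.29% of cells reached 100. For Mfap2, clusters 4, 2, 9, 5, 8, 6 and 10 ran from 294 to 138 with no gap between neighbours beyond the spread, clusters 3 and 1 were at 89.3 and 74.5, and mural cells at 13.9 ± 8.64 (SD, n = 5).

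Fibulins divided the endomysial clusters. Fbln1 was at 915 ± 213 in cluster 5 (SD, n = 3) and 890 ± 205.1 in cluster 8 (SD, n = 4), at 414 ± 55.4 in cluster 6 and at 160.3 ± 32.4 and 115 ± 61.5 in clusters 3 and 1 (SD, n = 4 each). Fbln2 took another order, led by cluster 3, where the strains lay close together at 1324 in Acta2GFP, 1408 in C57BL6, 1295 in the pool and 1355 in PdgfrbGFP. Its mean of 1346 ± 48.3 (SD, n = 4) was apart from that of cluster 5 (1102 ± 153, SD, n = 3). Fbln5 ran from 423 ± 39.2 in cluster 9 (SD, n = 4) through clusters 3, 8, 4, 1 and 2 to 273 ± 45.8 in cluster 6 (SD, n = 4), with no neighbours apart although the ends were, and was lower in cluster 5 (96.8 ± 32.0, SD, n = 3), cluster 10 (34.5) and cluster 7 (22.6). Efemp2 ran from 208 ± 60.3 in cluster 5 (SD, n = 3) to 88.9 ± 63.5 in cluster 10 (SD, n = 3), with no neighbours in its order apart.

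Efemp1, encoding fibulin-3, was concentrated in clusters 1 and 10. In cluster 1 it was at 1104 in Acta2GFP, 863 in C57BL6, 981 in the pool and 909.9 in PdgfrbGFP, and in cluster 10 at 565 in Cspg4dsRED, 948 in the pool and 703 in PdgfrbGFP. Every one of these 7 values lay above all values in the other clusters, of which the highest was 265 in C57BL6 cells of cluster 8. A level of 100 was reached by 96.4% of cells in cluster 1 and 90.8% in cluster 10, by 38.1% in cluster 3 and by 0.0% in clusters 2, 9 and 7. After thinning every cell to 40000 counts, 97.5% of cluster 1 cells and 94.6% of cluster 10 cells still had an Efemp1 read, against 23.7% in cluster 2 and 18.2% in cluster 7. Whether the mural reads are background or low expression was not tested.

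Per kilobase of exon the genes can be set against each other. In endomysial cells the highest mean was that of Mfap5, at 168 ± 40.7 counts per 500000 per kb, and Fbln2 (141 ± 45.1, SD, n = 5 each) lay within its spread. Mfap5 led in Acta2GFP and Cspg4dsRED, Fbln2 in C57BL6 and the pool, and Mfap4 in PdgfrbGFP. The other means were Mfap4 at 115 and, in falling order, Efemp1 (99.7), Mfap2 (96.3), Fbln1 (89.2), Fbn1 (59.5), Fbln5 (48.5), Efemp2 (33.5) and Eln (13.5). In perimysial cells Mfap4 led at 553, followed by Fbln1 (187) and Mfap2 (171), and Efemp1 (2.07) and Eln (1.11) were last. Paramysial cells had Mfap4 at 739, Mfap5 at 279, Mfap2 at 242 and Eln at 80.8 per kb. Cluster 10 was led by Efemp1 at 363 per kb.

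**Figure D2:**
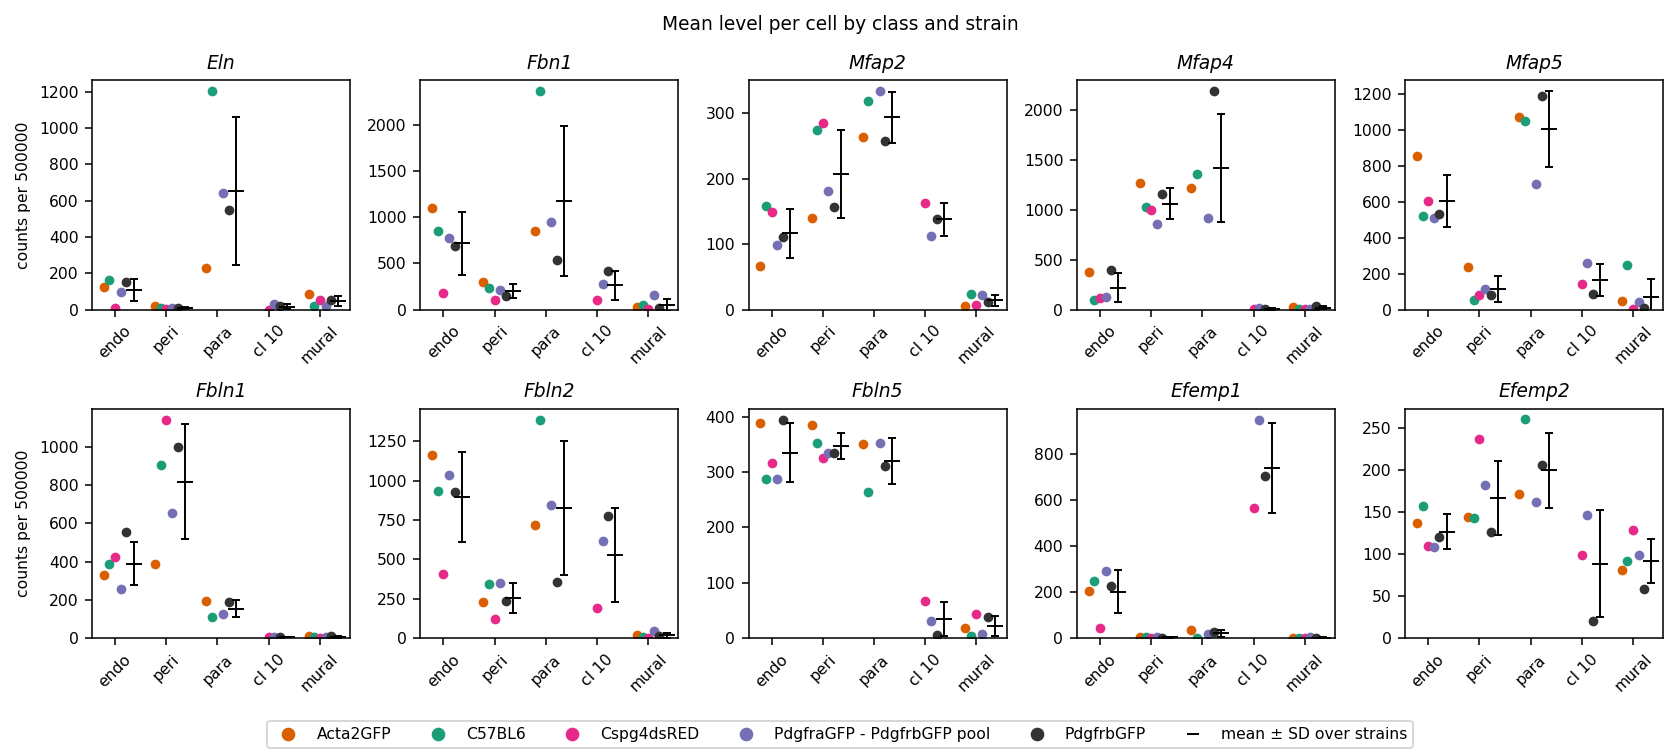
Mean level per cell (y axes, counts per 500000) of each gene by class (x axes, endo to mural), with 1 point per strain and the mean ± SD over strains beside them. Strain points of perimysial Efemp1 lie at 7.21 or lower and those of endomysial Efemp1 at 44.4 or higher.

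The next question was how the perimysial class differed from the endomysial class. Cells of a strain and class were pooled by adding their counts, and the sums were fitted over all 14121 genes with edgeR's quasi-likelihood test, with the strain as a block. By adjusted p under 0.05, 8 of the 10 genes were called, 3 higher and 5 lower in perimysial cells, beside 5.57% of all genes called (2.32% higher and 3.26% lower). The median log2 fold change was -0.74 over the 10 genes and -0.19 over all genes. Efemp1 differed most: it was at 7.21, 4.39, 0.748, 5.92 and 2.79 in perimysial cells of Acta2GFP, C57BL6, Cspg4dsRED, the pool and PdgfrbGFP, and at 207, 247, 44.4, 293 and 225 in their endomysial cells. No strain overlapped, and Efemp1 fell by 6.09 ± 0.23 on the log2 scale (SE, edgeR adjusted p = 4.09e-05).

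Eln fell by 3.23 ± 0.47 (SE, edgeR adjusted p = 0.00758). Its perimysial values were 20.2 in Acta2GFP and 6.65, 3.63, 6.39 and 8.20 in C57BL6, Cspg4dsRED, the pool and PdgfrbGFP, while endomysial values were 123, 163, 10.2, 99.2 and 151 in the same order. Each strain was lower in its perimysial cells, but the Acta2GFP perimysial value exceeded the Cspg4dsRED endomysial one. Mfap5 fell by 2.24 ± 0.21 (edgeR adjusted p = 0.001), Fbln2 by 1.77 ± 0.16 (edgeR adjusted p = 0.000961) and Fbn1 by 1.63 ± 0.20 (edgeR adjusted p = 0.00339), each lower in 5 of 5 strains. The Mfap5 values ran from 51.6 to 237 in perimysial and from 508 to 857 in endomysial cells, with no overlap.

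Mfap4 rose by 2.54 ± 0.36 (SE, edgeR adjusted p = 0.00645). It was at 1272, 1024, 999.6, 860 and 1158 in perimysial cells of Acta2GFP, C57BL6, Cspg4dsRED, the pool and PdgfrbGFP and at 373, 93.2, 118, 125 and 396 in their endomysial cells, so the groups did not overlap. Fbln1 rose by 1.03 ± 0.20 (edgeR adjusted p = 0.0263) and Mfap2 by 0.75 ± 0.15 (edgeR adjusted p = 0.0303), both in 5 of 5 strains. These latter calls were less firm. Fbln1 was not called without the strain block, nor without C57BL6, the pool or PdgfrbGFP, and Mfap2 was not called without the block, without the count filter, or without any of Acta2GFP, C57BL6, the pool and PdgfrbGFP. High perimysial Fbln1 was found in cluster 2 (1039 ± 184, SD, n = 5) and not in cluster 9 (181 ± 84.0, SD, n = 4). Endomysial clusters 5 and 8 were at 915 and 890, near cluster 2. Fbln5 differed by 0.14 ± 0.12 (edgeR adjusted p = 0.668) and Efemp2 by 0.43 ± 0.25 (edgeR adjusted p = 0.503), and neither was called.

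Other genes that build or cross-link these fibres split likewise. From a list of 20 assembly and cross-linking genes, 5 rose and 6 fell in perimysial cells, with a median of 0.88. The largest changes were in Emilin2, a microfibril-interface glycoprotein (-5.34 ± 0.77, edgeR adjusted p = 0.00701), Adamtsl2, a secreted protein that binds fibrillin-1 (-5.14 ± 0.90, edgeR adjusted p = 0.0168), and Ltbp2, a latent TGFβ-binding protein family member bound to microfibrils (4.38 ± 0.57, edgeR adjusted p = 0.0044), of whose exonic bases 9.34% overlap an antisense gene. From 12 elastolytic proteases and their inhibitors, 9 of them tested, 3 rose and 0 fell. They were Timp1, a metalloproteinase inhibitor (1.65 ± 0.33, edgeR adjusted p = 0.0268), Ctsk, the collagen- and elastin-degrading cathepsin K (1.09 ± 0.12, edgeR adjusted p = 0.00245), and Mmp2, gelatinase A (0.51 ± 0.09, edgeR adjusted p = 0.0131).

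**Figure D3:**
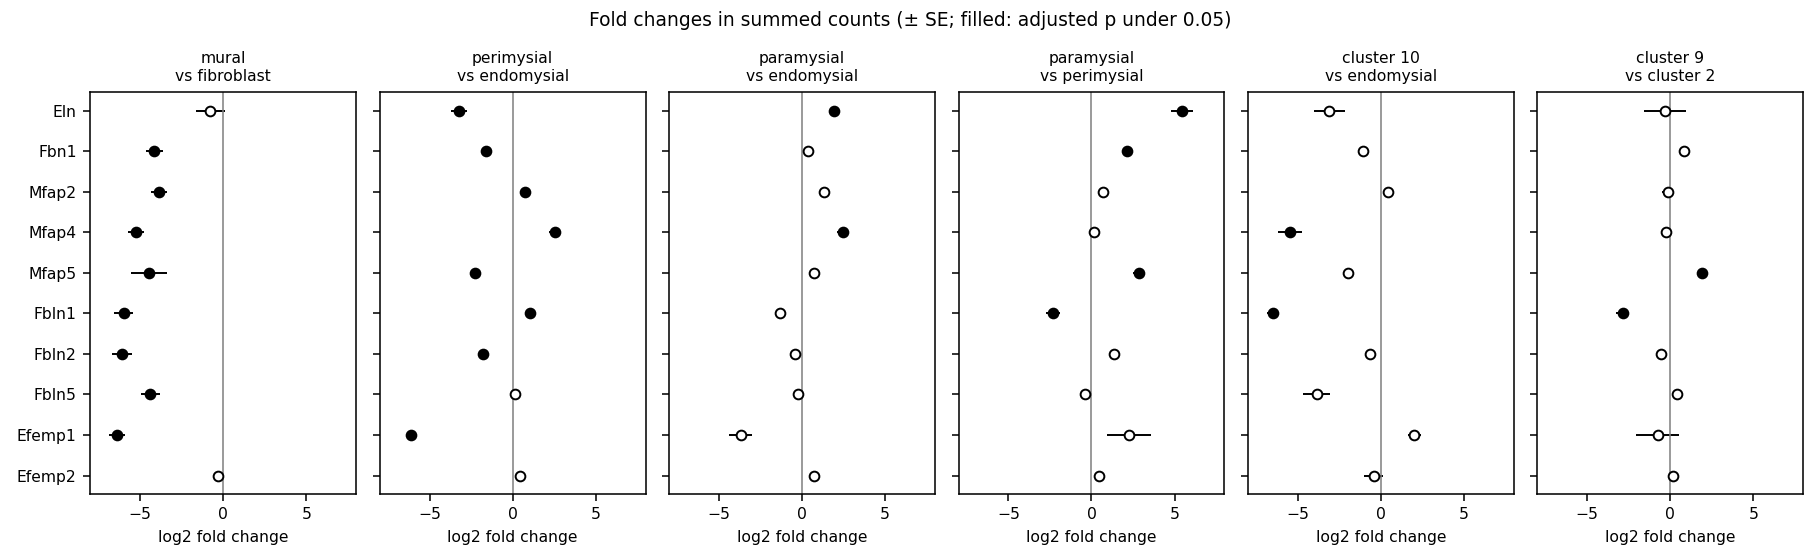
Log2 fold change of each gene in 6 comparisons (x axes, first class minus second), with bars for the SE from edgeR and filled points for an adjusted p under 0.05. Perimysial cells split the genes in both directions, while all 8 filled points of the mural comparison lie left of 0.

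Paramysial cells were compared with both other layers in the 4 strains with 3 or more such cells. These comparisons rest on 6, 3, 46 and 4 paramysial cells (Acta2GFP, C57BL6, the pool and PdgfrbGFP). Against endomysial cells, 2 of the 10 genes were called, both higher, beside 0.0963% of 14533 genes (0.0757% higher and 0.0206% lower). The median was 0.52 over the 10 genes and -0.86 over all genes. Eln rose by 1.93 ± 0.29 (SE, edgeR adjusted p = 0.0449), with 228, 1203, 640 and 547 in paramysial cells against 123, 163, 99.2 and 151 in endomysial cells. Mfap4 rose by 2.46 ± 0.34 (edgeR adjusted p = 0.0282), with 1215, 1355, 922 and 2189 against 373, 93.2, 125 and 396. Neither gene overlapped between these class values. Of the paramysial cells, 45 of 46 in the pool and 3 of 4 in PdgfrbGFP were from soleus, and the endomysial soleus cells alone had higher Mfap4 (247 in the pool and 1150 in PdgfrbGFP) and Eln (125 and 273) than endomysial cells of both muscles together. The PdgfrbGFP soleus values lay above the lowest paramysial values of Mfap4 and of Eln, so the groups overlap when soleus endomysial cells are used. Neither gene was called without the strain block, nor without PdgfrbGFP. In these settings 0 of the 10 genes were called, beside 0.055% and 0.075% of all genes. Eln was also not called without C57BL6 or the pool, or by DESeq2. Without Acta2GFP, 4 of the 10 genes were called, beside 0.392% of all genes, against the 0.0963% above.

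Against perimysial cells 4 of the 10 genes were called, 3 higher and 1 lower, beside 0.871% of 12861 genes (0.381% higher and 0.49% lower). Their median was 1.02, and -0.70 over all genes. Eln was 5.46 ± 0.68 higher on the log2 scale (edgeR adjusted p = 0.00734), Mfap5 2.88 ± 0.36 higher (edgeR adjusted p = 0.00724) and Fbn1 2.14 ± 0.25 higher (edgeR adjusted p = 0.00454), each in 4 of 4 strains. Fbln1 fell by 2.29 ± 0.42 (edgeR adjusted p = 0.0422), a call lost without C57BL6, the pool or PdgfrbGFP. Mfap4 differed by 0.17 ± 0.25 (edgeR adjusted p = 0.882) and was not called. Both comparisons share the paramysial libraries, so their values are given side by side and are not independent.

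Among the listed genes, Fbln7, a further fibulin, was the 1 of 20 assembly genes called against endomysial cells (2.18 ± 0.29, edgeR adjusted p = 0.0264). Against perimysial cells 2 were called, both higher: Vcan, encoding the proteoglycan versican (4.6 ± 0.49, edgeR adjusted p = 0.00327), and Loxl1, an elastin cross-linking oxidase (2.04 ± 0.35, edgeR adjusted p = 0.0336). Of the protease genes, the matrix-bound inhibitor gene Timp3 fell by 2.13 ± 0.30 against endomysial cells (edgeR adjusted p = 0.0336) and by 2.56 ± 0.48 against perimysial cells (edgeR adjusted p = 0.047), where Timp2, another inhibitor of the family, fell by 1.3 ± 0.24 (edgeR adjusted p = 0.0469). Timp3 shares 21.3% of its exonic bases with the antisense gene Syn3. The medians of the assembly and protease lists were 0.88 and 0.23 against endomysial cells and 0.26 and -0.29 against perimysial cells.

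Cluster 10 was compared with endomysial cells in 3 strains. Of the 10 genes 2 were called, both lower, beside 0.442% of 12455 genes (0.265% higher and 0.177% lower), with a median of -1.54 and one of -0.41 over all genes. Fbln1 was at 5.74 in Cspg4dsRED, 5.85 in the pool and 4.70 in PdgfrbGFP, against 422, 256 and 553 in endomysial cells, and fell by 6.48 ± 0.37 (SE, edgeR adjusted p = 0.00604). Mfap4 was at 1.38, 14.5 and 2.77 against 118, 125 and 396, and fell by 5.46 ± 0.70 (edgeR adjusted p = 0.0414). Efemp1 was higher in each of the 3 strains, by 2.02 ± 0.38, without passing the threshold (edgeR adjusted p = 0.144). How many of the 10 genes were called depended on the libraries and the settings. Leaving out a strain gave 6 without Cspg4dsRED, 4 without the pool and 0 without PdgfrbGFP, beside 1.25%, 0.903% and 0.0% of all genes. DESeq2 called 6 (8.07% of all genes) and the fit without the count filter 7 (0.97%). With RLE size factors 1 was called (0.45%), and the median of all genes moved to -0.27. Loxl1 was the 1 of 17 assembly genes called (-3.64 ± 0.49, edgeR adjusted p = 0.0469), and of 8 protease genes 0 were called by edgeR. The lists had medians of -1.44 and -0.23.

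The perimysial clusters also differed from each other. Cluster 9 and cluster 2 differed in 2 of the 10 genes, 1 higher and 1 lower, beside 0.92% of 11843 genes (0.363% higher and 0.557% lower), with medians of -0.20 over the 10 genes and -0.12 over all genes. Mfap5 was at 324, 126, 246 and 253 in cluster 9 of Acta2GFP, C57BL6, the pool and PdgfrbGFP, against 69.8, 45.2, 68.7 and 51.8 in cluster 2, and was 1.88 ± 0.22 higher (SE, edgeR adjusted p = 0.00882). Fbln1 was at 57.7, 204, 243 and 221 in cluster 9 against 1016, 967, 794 and 1138 in cluster 2, and fell by 2.86 ± 0.40 (edgeR adjusted p = 0.0203). Neither gene overlapped between the clusters, and how many of all genes separated likewise was not counted. The count of called genes was 1 without C57BL6 and 0 without the pool or without PdgfrbGFP. The share of all genes called was then 0.294%, 0.292% and 0.319%.

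Of the assembly list, 18 genes were tested. Ltbp2 was higher in cluster 9 (3.97 ± 0.55, edgeR adjusted p = 0.0192), and Lox, encoding lysyl oxidase, which cross-links elastin and collagen, fell by 1.53 ± 0.17 (edgeR adjusted p = 0.0081). Among the protease genes, 3 of 8 protease genes were called, with Timp1 at 2.16 ± 0.27 (edgeR adjusted p = 0.0101), the membrane-bound metalloproteinase gene Mmp14 at 1.20 ± 0.21 (edgeR adjusted p = 0.0476) and Timp2 at -1.10 ± 0.18 (edgeR adjusted p = 0.0326). The list medians were 0.12 and -0.21.

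Within the endomysial class, a test over clusters 1, 3, 5, 6 and 8 called 7 of the 10 genes, beside 5.46% of 16498 genes. Fbln1 had the smallest adjusted p of the 10 (edgeR, 4.01e-06), followed by Fbn1 (edgeR, 0.000132), Fbln5 (edgeR, 0.000579) and Fbln2 (edgeR, 0.000604). Not called were Eln (edgeR adjusted p = 0.452), Mfap4 (edgeR adjusted p = 0.125) and Efemp2 (edgeR adjusted p = 0.0815). Without the pool, 4 of the 10 genes were called, beside 1.59% of all genes. Among the listed genes, 9 of 20 assembly genes and 3 of 9 protease genes passed, with Lox (edgeR adjusted p = 1.39e-05), Emilin2 (edgeR adjusted p = 0.000142), Adamtsl2 (edgeR adjusted p = 0.000186), Cst3, the cystatin C gene (edgeR adjusted p = 0.000235), Timp2 (edgeR adjusted p = 0.00941) and Ctsk (edgeR adjusted p = 0.0126) among them.

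Mural cells were set against all fibroblasts in 5 strains. Of the 10 genes 8 were called, and all 8 were lower in mural cells, beside 15.4% of 13880 genes (6.15% higher and 9.27% lower). The median was -4.42 over the 10 genes and -0.46 over all genes. The largest falls were in Efemp1 (-6.38 ± 0.49, edgeR adjusted p = 0.000164), Fbln2 (-6.09 ± 0.58, edgeR adjusted p = 0.00036) and Fbln1 (-6.0 ± 0.56, edgeR adjusted p = 0.000346), then Mfap4 (-5.24 ± 0.50, edgeR adjusted p = 0.000355). Mfap5 fell by 4.46 ± 1.06 (edgeR adjusted p = 0.0231), a call lost without the strain block and without Acta2GFP, the pool or PdgfrbGFP. Its mural values were 47.3, 246, 2.93, 39.9 and 8.02 in Acta2GFP, C57BL6, Cspg4dsRED, the pool and PdgfrbGFP. The C57BL6 value came from 9 cells, of which 1 was at 1357, and was 108 without that cell.

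Eln and Efemp2 were not called between mural cells and fibroblasts. Efemp2 was at 81.6, 91.6, 129, 99.0 and 58.9 in mural cells of Acta2GFP, C57BL6, Cspg4dsRED, the pool and PdgfrbGFP and at 142, 153, 128, 124 and 121 in fibroblasts, a difference of -0.33 ± 0.25 (SE, edgeR adjusted p = 0.449). Eln was at 84.2, 19.8, 55.4, 20.8 and 53.5 in mural cells against 93.6, 106, 5.49, 150.0 and 131 in fibroblasts (-0.77 ± 0.89, edgeR adjusted p = 0.655), so mural cells of Cspg4dsRED were above the fibroblasts of the same strain and those of the other 4 strains were below. The Cspg4dsRED fibroblasts were mainly of cluster 6 (46 cells), cluster 10 (37) and cluster 2 (16), where Eln was at 8.21, 0.0903 and 4.08, with 2 cells each of clusters 3 and 8 and 1 of cluster 4. At least 100 counts per 500000 of Eln were present in 13 of 56 mural cells of Acta2GFP, 0 of 9 of C57BL6, 8 of 74 of Cspg4dsRED, 1 of 11 of the pool and 6 of 37 of PdgfrbGFP.

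A level in mural cells was also read against what fibroblast markers left there. Efemp2 in mural cells was a median of 62.7% of its level in fibroblasts of the same strain (55.6% to 104% over 5 strains), and Eln 60.2% (8.12% to 1070%). The other 8 genes had medians from 1.07% (Efemp1) to 7.29% (Mfap2). Fibroblast markers had medians of 1.33% (Pdgfra), 1.94% (Cd34), 2.23% (Lum), 5.19% (Col1a1) and 6.84% (Dcn), close to the range of the medians of those 8 genes. Single strains went further. The highest strain was at 89.8% for Mfap5, 21.4% for Fbln5, 15.4% for Fbn1 and 13.3% for Mfap2. Mfap4, Fbln1, Fbln2 and Efemp1 reached 6.61% at most, and the markers 10.4% (Dcn). The part of free RNA and of cells caught together in these low levels was not tested.

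**Figure D4:**
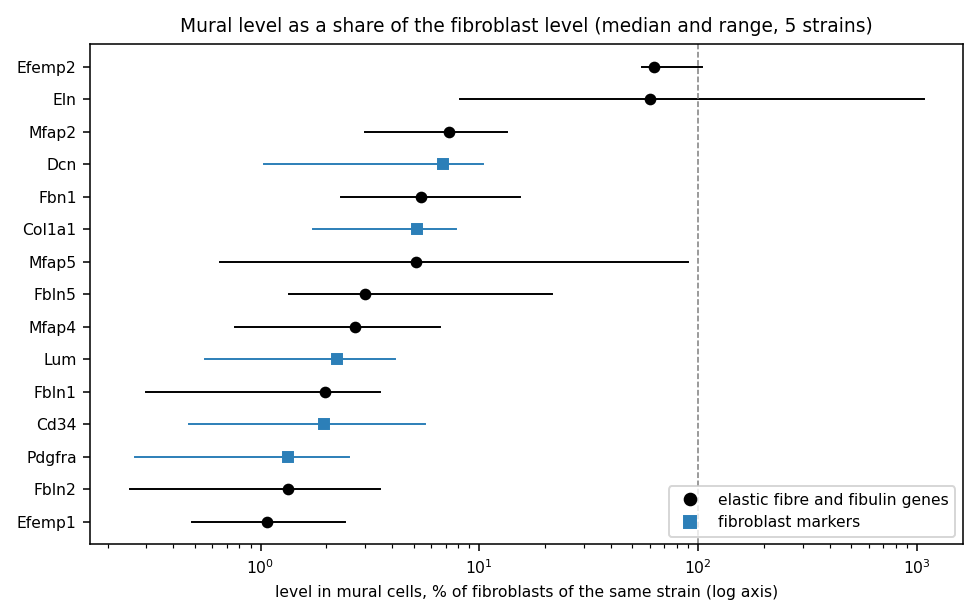
Level in mural cells as a percentage of the fibroblast level of the same strain (x axis, log scale), with points for the median and lines for the range over 5 strains, for the 10 genes (black circles) and 5 fibroblast markers (blue squares). The medians of Efemp2 and Eln lie near 60% and those of the remaining 13 genes at 7.29% or lower, while the line of Mfap5 reaches 89.8%.

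Of the 20 assembly genes 15 fell in mural cells and 0 rose, with a median of -3.81. Adamtsl2 (-6.77 ± 0.98, edgeR adjusted p = 0.00238), Fbn2, which encodes fibrillin-2 (-6.58 ± 1.33, edgeR adjusted p = 0.0113), and Emilin2 (-6.51 ± 0.74, edgeR adjusted p = 0.000769) changed most. Fbn2 rested on 3 counts over all mural libraries, so its size depends on the prior count. Of 9 protease genes 6 fell and 1 rose, with a median of -2.36. The falls were led by Timp1 (-6.18 ± 0.70, edgeR adjusted p = 0.000778), Mmp2 (-5.88 ± 0.47, edgeR adjusted p = 0.000193) and Ctsk (-4.10 ± 0.75, edgeR adjusted p = 0.00754), and the rise was in Timp3 (1.09 ± 0.28, edgeR adjusted p = 0.0299).

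Soleus, a slow postural muscle, and gastrocnemius, a mostly fast muscle, were labelled separately in the pool and in PdgfrbGFP. This comparison did not use the clusters except to choose the class. In the pool each muscle was on a plate of its own, so muscle and plate cannot be told apart, while in PdgfrbGFP both were on 1 plate. In endomysial cells 0 of the 10 genes and 0.0% of 16337 genes were called by edgeR. An unadjusted edgeR p under 0.05 was found for 807 genes, and DESeq2 called 115 genes (0.704%). Mfap4 had the largest difference of the 10: it was at 247 in soleus and 57.2 in gastrocnemius of the pool, and at 1150 and 225 in PdgfrbGFP. The difference of 2.11 ± 0.17 (SE, n = 2 strains) had an edgeR adjusted p of 0.967 and was the 1 member called by DESeq2.

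Within the clusters, Mfap4 was higher in soleus in 7 of 7 pairs of an endomysial cluster and a strain, by ratios of 1.84 to 15.2. In cluster 3 it was at 355 in soleus and 56.7 in gastrocnemius of the pool and at 1487 and 284 in PdgfrbGFP. Mfap5 was also higher in 7 of 7 pairs, by ratios of 1.12 to 2.08. Mfap2 and Fbln5 were higher in 6 pairs, Efemp2 in 4, Eln, Fbn1 and Fbln1 in 3, and Fbln2 and Efemp1 in 2. Pairs of a strain share a sort and plates and are not independent replicates, and all came from the pool and PdgfrbGFP. How many of all genes were higher in soleus in every pair was not counted. In the pool, where muscle and plate cannot be told apart, median counts per cell were 501274 in soleus and 292340 in gastrocnemius.

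**Figure D5:**
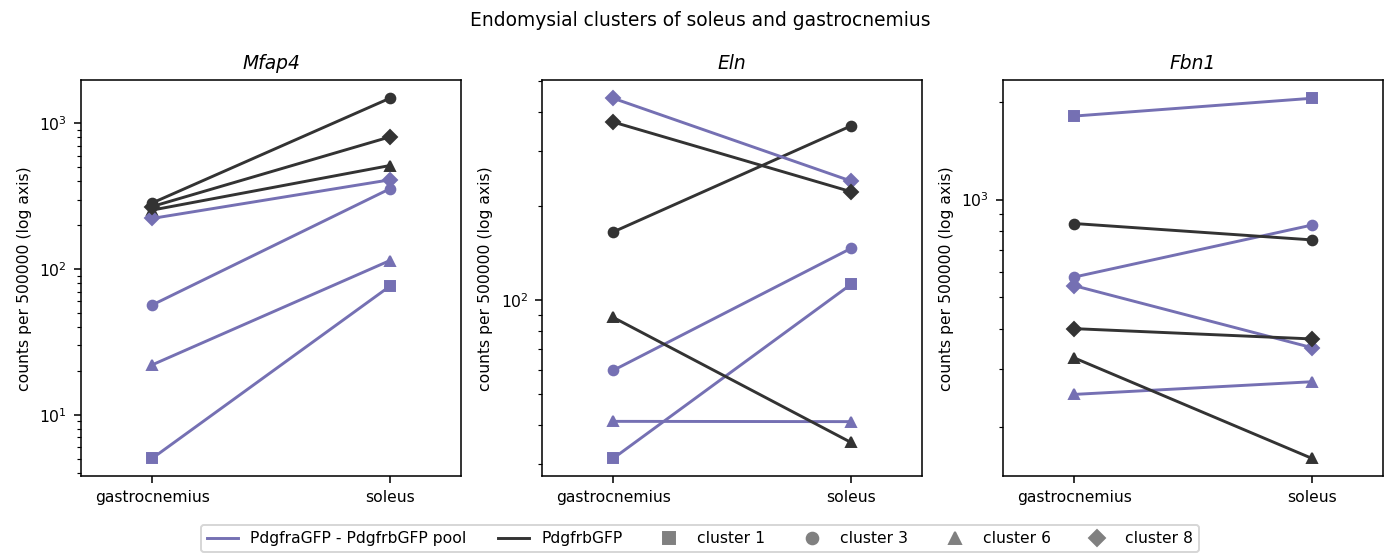
Mean level (y axes, counts per 500000, log scale) in gastrocnemius and soleus, with 1 line for each of 7 pairs of an endomysial cluster and a strain. All 7 lines rise for Mfap4, from 5.02 to 76.2 in the lowest pair.

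In perimysial cells, too, 0 of the 10 genes and 0.0% of 11698 genes were called by edgeR, with 732 genes at an unadjusted p under 0.05. DESeq2 called 370 genes (3.16%), with Mfap5 and Fbln1 among them. Mfap5 was at 187 in soleus and 53.3 in gastrocnemius of the pool and at 163 and 12.8 in PdgfrbGFP (2.73 ± 0.61, edgeR adjusted p = 0.676). Fbln1 was at 508 and 775 in the pool and at 412 and 1164 in PdgfrbGFP (-1.42 ± 0.29, edgeR adjusted p = 0.546). Cluster 9 had 8 of its 9 pool cells and 9 of its 10 PdgfrbGFP cells from soleus, and 45 of the 46 pool cells of cluster 4 were from soleus, so muscle and cluster moved together there. Within cluster 2, Fbln1 was at 774.5 in soleus and 801.8 in gastrocnemius of the pool, and at 700.6 and 1181 in PdgfrbGFP. Mfap5 there was at 99.2 and 55.9 in the pool and at 78.5 and 13.1 in PdgfrbGFP. The soleus values of cluster 2 came from 8 pool cells and 7 PdgfrbGFP cells. The lists of assembly and protease genes had 0 genes called by edgeR in either class, with medians from -0.28 to -0.06.

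Finally, the genes were compared by how their levels ran together over 32 libraries, each the sum of a cluster and a strain, as a description in which libraries share cells' source and depth. Mfap5 and Fbln2 were closest among the 10 (Pearson's r = 0.90 of log2 levels), followed by Fbn1 and Mfap5 (0.88) and Fbn1 and Fbln2 (0.86). Mfap4 ran with Fbln1 (0.76) and against Efemp1 (-0.34). Among 13938 genes, the one most like Fbn1 was Nid1 (0.90), for Fbln2 it was Ltbp4 (0.96), for Mfap4 it was Cilp (0.91), for Mfap2 it was Col1a2 (0.92), for Mfap5 it was Ang (0.92), for Fbln1 it was Nfix (0.89), for Efemp1 it was Arsi (0.91) and for Fbln5 it was Rftn1 (0.83). Eln was most like Gm30003 (0.80), which overlaps it, and Efemp2 was least like any gene (Gm26909, 0.65).

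Between single cells of a fibroblast cluster most pairs of the genes ran together little. Over the 45 pairs of members, the median Spearman's rho across cells lay between 0.01 and 0.14 in the 8 fibroblast clusters with 50 or more cells. Single pairs went further. The highest rho of a cluster ran from 0.31 (cluster 6) to 0.52 (cluster 10), and the lowest from -0.34 (cluster 9) to -0.18 (cluster 3). Pairs over 0.3 numbered 1 in clusters 2 and 6, 6 in cluster 4 and 10 in cluster 10. In mural cells it was 0.34, with 27 of 45 pairs over 0.3 and 0.76 for Fbn1 and Fbln2. Cells share libraries and differ in depth, and these values carry no test. Cells of all strains were pooled for them. Fbn1 had no count in 63 of 74 mural cells of Cspg4dsRED and in 1 of 56 of Acta2GFP. For Fbln2 these numbers were 58 and 2. The median mural cell was at 5.71 for Fbn1 and 5.29 for Fbln2. The mural values of rho were not split by strain, so they mix differences between strains with those between cells of a strain.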

How the data were processed

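The authors sorted single cells into plates, made Smart-seq2 libraries and sequenced single reads of 50 bases. Per the paper's methods, reads were aligned to GRCm38 with TopHat2, what the methods call doublets (read here as duplicate reads) were removed with samtools, and reads were counted per gene with featureCounts. Use of strand and the annotation release were not given in the sources used here. Clusters came from pagoda2 on these same counts. The deposited table holds raw read counts per gene and cell for 46517 genes and 92 ERCC spike-ins, and 1 column of no sample was not used. Spike-ins took 1.31% of counts and were left out of totals and tests. Gene identifiers were paired with symbols through GENCODE M21, which matched 46005 and left 512 unmatched.

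Each cell was scaled to 500000 counts and averaged within a strain label (3 cells or more), then over strains. For tests, raw counts were summed by strain and class and fitted with edgeR 4.0.16 in R 4.3.3 (TMM, filterByExpr, quasi-likelihood test, Benjamini-Hochberg over all genes tested), with a call at an adjusted p under 0.05. The script was tested on simulated data for the perimysial and endomysial comparison: over 13638 genes it recovered 32.3% of 93 genes changed by a log2 size of 2 and 58.8% of 97 changed by 3, and called 2 unchanged genes. The strain label was a block because both classes of a strain come from the same label of mice and sort. After class means were removed, libraries of 1 strain correlated at 0.20 to 0.41 across genes between perimysial and endomysial classes, and the lowest value over 6 comparisons was 0.07. In each comparison, every strain correlated best with itself.

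The alternatives were RLE size factors, DESeq2 1.42.0, no count filter, no block, each strain left out, the plate as the unit and cells weighted alike. Members and lists were chosen with earlier results of these data known. All 10 members are named, and of each list the 3 largest called changes of a comparison. Over all cells the members held from 128349 counts (Eln) to 754863 (Fbln2). PCR reads without molecular identifiers are not independent molecules. Cells were used as labelled, and no doublet caller was run.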

Additional observations from a re-analysis of the deposited data

Results flagged for a closer look

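Of 100 groups of 4 or 5 strains in which a level could be checked for a strain standing far from the others, 8 were marked, and chance marks about 1 in 20. Acta2GFP stood high in 4 of them. Mfap4 in cluster 2 was at 1587 there and at 885 to 1087 in the other strains. Eln in cluster 9 was at 28.0 against 2.09 to 5.04, and Eln in the perimysial class, which holds that cluster, was at 20.2 against 3.63 to 8.20. Mfap5 in the endomysial class was at 857 against 508 to 603. Acta2GFP cells came from 1 plate and from tissue treated with elastase, so strain, plate and enzyme cannot be told apart.

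C57BL6 stood high in 3. Mfap2 in cluster 1 was at 136.5 against 46.3 to 60.2, Efemp2 in cluster 8 at 187 against 119 to 126, and Mfap5 in mural cluster 7 at 246 against 2.93 to 47.3. The pool stood high in 1, Fbn1 in cluster 7, at 158 against 9.24 to 49.97 in the other strains, with 3 of 11 cells at 100 or more. The mural Mfap5 value came from 9 cells and was 108 without the highest of them.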

How the results depend on the processing

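The number of the 10 genes called stayed within 1.5 times the reported one under the alternatives for mural cells against fibroblasts and perimysial against endomysial cells. Under them the share of all genes called ran from 6.62% (no count filter) to 31.2% (DESeq2) in the mural comparison. It ran from 2.86% (without C57BL6) to 14.6% (DESeq2) in the perimysial comparison. Without the replicate block, 7 genes were called in mural cells against fibroblasts, 6 in perimysial against endomysial cells, 0 in paramysial against endomysial cells, 4 in paramysial against perimysial cells, 2 in cluster 10, 2 between clusters 9 and 2, and 8 among the endomysial clusters, and in the soleus comparisons 0. The shares of all genes called without it were 15.4%, 4.68%, 0.055%, 1.26%, 0.345%, 1.12%, 5.12% and 0.0% in that order. Leaving out a strain gave 0 to 4 genes for paramysial against endomysial cells, 0 to 6 for cluster 10, 0 to 2 for clusters 9 and 2, and 4 among the endomysial clusters without the pool. The shares of all genes were then 0.075% to 0.392%, 0.0% to 1.25%, 0.292% to 0.407%, and 1.59%. Cluster 10 gave 1 gene with RLE size factors, 6 with DESeq2, 7 without the count filter and 1 with cells weighted alike. Beside them stood 0.45%, 8.07%, 0.97% and 0.336% of all genes. Clusters 9 and 2 gave 1 with the plate as the unit, beside 0.389% of all genes. DESeq2 called 1 gene in endomysial and 2 in perimysial cells of soleus against gastrocnemius, beside 0.704% and 3.16% of all genes. The cause of these changes was not tested.

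Signs turned in uncalled genes. Between cluster 9 and cluster 2, Eln was 0.96 without the replicate block. Leaving out a strain moved Mfap4 in paramysial against perimysial cells between -0.13 (without PdgfrbGFP) and 0.297, and Efemp2 in cluster 10 between -0.97 and 0.38 (without PdgfrbGFP). Between clusters 9 and 2 it moved Eln between -1.23 and 0.46 (without PdgfrbGFP), Mfap2 between -0.49 and 0.17 (without Acta2GFP), Mfap4 between -0.54 and 0.00932 (without Acta2GFP) and Efemp2 between -0.0433 (without PdgfrbGFP) and 0.45. With cluster 3 cells alone, soleus against gastrocnemius gave Fbn1 0.0386, Mfap2 -0.24, Fbln1 0.39, Efemp1 0.12 and Efemp2 0.0783, and with cluster 2 cells alone Eln 0.0196 and Mfap4 0.24. Leaving out a strain could not be fitted for soleus, where 1 library a muscle remained. Of the values of single members under an alternative, 742 kept their direction and side of the threshold, 40 lost a call, 34 gained one and 14 turned. With 10 or more cells per strain, the highest cluster became 9 for Mfap4 and 1 for Mfap5. DESeq2 called 4336 genes in mural cells, 2068 in perimysial cells, 787 and 1087 in the paramysial comparisons, 1005 in cluster 10, 857 between clusters 9 and 2 and 2588 among endomysial clusters.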
